A study of Mus musculus with 16 samples.

Results

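The genes described here are the keratins of simple epithelia, Krt7, Krt8, Krt18, Krt19 and Krt20, together with vimentin (Vim). They were chosen by symbol, which the deposited table writes in capitals (KRT7, KRT8, KRT18, KRT19, KRT20 and VIM), and all 6 were found among its 18132 genes. The table holds 1 intensity per gene for each of 16 mouse kidneys, measured on Illumina BeadChips, microarrays whose probes glow in proportion to the transcript they bind. In unilateral ureteral obstruction (UUO) a ureter is closed, here with a metal clip, and the kidney behind it is injured by the retained urine. Kidneys were taken 24 h after ligation from 7 wildtype (WT) mice, 3 from set 1 and 4 from set 2 of the labels, and from 5 IL-33-deficient mice, 2 from set 1 and 3 from set 2. Control kidneys came from untreated mice, 2 WT and 2 IL-33-deficient, whose set is not stated. The IL-33-deficient mice (IL-33 KO in the labels) lack the cytokine IL-33 and had been crossed to C57BL/6J BomTac, and the labels call all animals C57/BL6. Age and sex are not in the labels. RNA came from homogenates of kidney tissue, so that fewer cells of a type and less RNA per cell cannot be told apart in any value below.

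Keratins are the intermediate filaments of epithelia. A filament is built from pairs of a type I chain (Krt18, Krt19 or Krt20) and a type II chain (Krt7 or Krt8), and a chain without a partner is degraded. Krt8 and Krt18 form the basic pair of simple epithelia, Krt7 and Krt19 are found in ducts and collecting ducts, and Krt20 is best known from intestinal epithelium and from the umbrella cells of the urothelium. In a healthy kidney the proximal tubule holds little keratin, and injured tubules are known to increase it. Vim is the filament of fibroblasts, endothelium, leukocytes and podocytes, and is also known from tubule cells that dedifferentiate after injury.

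Krt8 and Krt18 are neighbours on chromosome 15. Their starts face away from each other, and no other protein-coding gene lies between them as RefSeq annotates GRCm38.p6, where Krt7 lies farther off on the same chromosome and Krt19 and Krt20 lie on chromosome 11. Of the 6 genes, 5 had a promoter in the RefSeq table used here, and Krt19 is only named. The promoters of the Krt8 and Krt18 pair, of Krt20, whose transcript rose most, and of Vim, the filament of other cell types, are shown as the 250 bases before the start, on the strand of the gene. Capitals mark a TATA box (TATAAA).
Krt8, chr15:102004343-102004592, minus strand: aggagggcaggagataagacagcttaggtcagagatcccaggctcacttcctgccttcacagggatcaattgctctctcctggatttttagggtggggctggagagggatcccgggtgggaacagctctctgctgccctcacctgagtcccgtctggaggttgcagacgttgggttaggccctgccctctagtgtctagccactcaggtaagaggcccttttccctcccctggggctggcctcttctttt
Krt18, chr15:102027966-102028215, plus strand: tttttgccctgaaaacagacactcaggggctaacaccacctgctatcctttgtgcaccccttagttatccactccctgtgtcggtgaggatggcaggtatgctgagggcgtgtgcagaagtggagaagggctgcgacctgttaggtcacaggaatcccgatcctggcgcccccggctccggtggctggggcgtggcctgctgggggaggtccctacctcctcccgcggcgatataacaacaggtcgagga
Krt20, chr11:99438154-99438403, minus strand: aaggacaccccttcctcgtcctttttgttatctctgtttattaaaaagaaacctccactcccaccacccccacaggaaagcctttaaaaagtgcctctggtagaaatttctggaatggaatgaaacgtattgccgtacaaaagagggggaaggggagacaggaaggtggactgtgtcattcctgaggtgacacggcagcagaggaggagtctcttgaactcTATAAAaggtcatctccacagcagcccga
Vim, chr2:13574061-13574310, plus strand: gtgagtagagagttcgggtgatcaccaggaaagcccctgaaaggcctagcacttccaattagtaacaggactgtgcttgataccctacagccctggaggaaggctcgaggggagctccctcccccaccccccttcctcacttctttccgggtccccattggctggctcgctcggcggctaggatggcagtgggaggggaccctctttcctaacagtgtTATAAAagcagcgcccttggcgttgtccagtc
The motifs searched on both strands were the TATA box, an AP-1 site (TGANTCA) and a GC box (GGGCGG), which do not overlap one another. TATAAA stood 29 bases before the start of Krt20 and 32 bases before that of Vim, and 12.4% of 32851 promoters of the same length held it. None of these letters were found in the windows of Krt8 and Krt18. The Krt7 window held 4 GC boxes and no TATAAA, against 32.7% of all promoters with a GC box. AP-1 letters were in none of the 5 windows and in 6.75% of all promoters.

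Il33 was read first in every kidney, as a check of the labels. On the log2 scale of intensity it was 7.62 and 8.02 in WT controls, lay between 8.39 and 9.57 in WT kidneys after UUO, and between 6.80 and 7.02 in all 7 IL-33-deficient kidneys. No IL-33-deficient kidney overlapped a WT kidney. Whether the probe lies inside the deleted part of the gene is not given in the sources used here. Array medians lay between 132 and 133 intensity units, and the 16 arrays were alike in the distribution of their values. The obstructed WT kidneys 3818 and 3820 of set 1, named by the number in their label, stood apart from the rest in several genes. Their summed intensity over 11 injury genes of the tubule was 34795 and 24281, against 40430 to 54349 in the other WT and 44341 to 56233 in the IL-33-deficient obstructed kidneys. The rises of Vim and Krt20 in WT kidneys, and the genotype differences of Krt8, Krt18, Krt20 and Vim after UUO, are given with and without them.

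The first question was how the epithelial filaments responded to 24 h of UUO in WT kidneys. All 6 genes were higher after UUO, and all 6 passed an adjusted p of 0.05 (limma with Benjamini-Hochberg adjustment over 18132 genes), where 15.2% of all genes passed, 6.97% as higher and 8.22% as lower. The median log2 fold change of the 6 genes was 1.15, beside -0.00076 over all genes. For the 5 keratins every obstructed kidney lay above both controls, as was the case for 10.2% of all genes. The rise was largest for Krt20 and smallest for Krt19.

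Krt8, the type II chain of the basic pair, had a log2 intensity of 10.13 and 10.14 in the WT controls. After UUO the 7 WT kidneys had a lowest value of 11.31, a median of 11.88 and a highest value of 11.96. The groups did not overlap, and the WT group mean rose from 10.13 ± 0.00626 (SD, n = 2) to 11.74 ± 0.26 (SD, n = 7). That is a log2 fold change of 1.60 (SE 0.15), or 3.04-fold, with an adjusted p of 1.8e-05 in limma. Both WT controls had the same deposited intensity, 1110.78 units, so that their SD came only from the quantile normalization made here. In the order of all 18132 genes from the largest rise down, Krt8 was 54th.

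Krt18, its type I partner, had a log2 intensity of 7.70 and 7.59 in the WT controls and a lowest value of 8.25, a median of 9.03 and a highest value of 9.24 after UUO. The lowest obstructed kidney was 3818, and it still lay above both controls. Krt18 rose by a log2 fold change of 1.302 (SE 0.19), or 2.47-fold, with an adjusted p of 0.000501 in limma.

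Krt7, the type II chain of ducts, was 9.30 and 9.06 on the log2 scale in the WT controls. After UUO its lowest value was 9.49, its median 9.94 and its highest 10.18. No obstructed kidney reached down to the controls, but the gap of kidney 3818 to the higher control was small beside the spread within the group. This gave a log2 fold change of 0.75 (SE 0.15), or 1.68-fold, with an adjusted p of 0.00433 in limma.

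Krt19, a type I chain of ducts that has no tail domain, was close to background. It was 6.89 and 6.88 on the log2 scale in the WT controls, and after UUO its lowest value was 7.10, its median 7.17 and its highest 7.39. The groups did not overlap, and the change was small, with a log2 fold change of 0.33 (SE 0.08), or 1.25-fold, with an adjusted p of 0.0137 in limma. With the lowest intensity of each array subtracted and 16 units added before log2, the log2 fold change of Krt19 was 0.83.

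Krt20 moved most. Its deposited intensity lay between 110 and 113 units in the WT controls, near the 95.5 units of the dimmest gene in the table, and between 275 and 3014 units in the 7 obstructed WT kidneys. On the log2 scale it was 6.82 and 6.78 in the controls and 9.68, 10.22, 8.11, 10.49, 9.27, 11.56 and 10.98 in kidneys 3818, 3819, 3820, 3892, 3893, 3894 and 3895. All obstructed kidneys were higher than the controls, with 3820 the lowest and 3894 the highest. The log2 fold change of 3.24 (SE 0.59), or 9.46-fold, had an adjusted p of 0.00200 in limma. Ordered from the largest rise down, Krt20 was 11th of 18132 genes. Subtracting the lowest intensity in the same way raised it to 4.92, so that its size depends on how background is treated.

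Vim was 8.07 and 8.21 on the log2 scale in the WT controls, and after UUO its lowest value was 8.11, its median 9.26 and its highest 9.51. The groups overlapped, because kidney 3820 lay between the controls while the other 6 lay above them. The log2 fold change was 0.99 (SE 0.27), or 1.99-fold, with an adjusted p of 0.0229 in limma, and the exact two-sided permutation test gave p = 0.0556. For each of the 5 keratins that exact test gave p = 0.0278, the smallest that 2 against 7 kidneys allow. Without kidneys 3818 and 3820 the log2 fold change of Vim was 1.22 and that of Krt20 was 3.70.

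These calls rested on few controls. Without control 3812 only 3 of the 6 genes passed, with 809 genes called in all in place of 2754, and without control 3811 there were 4, in fits that take the lone control to vary like the other groups. With the 3 obstructed kidneys of set 1 alone, Krt8 was the only one of the 6 to pass, with 188 genes called in all, and all 6 log2 fold changes kept their direction, with 0.69 for Vim and 2.54 for Krt20.

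**Figure D1:**
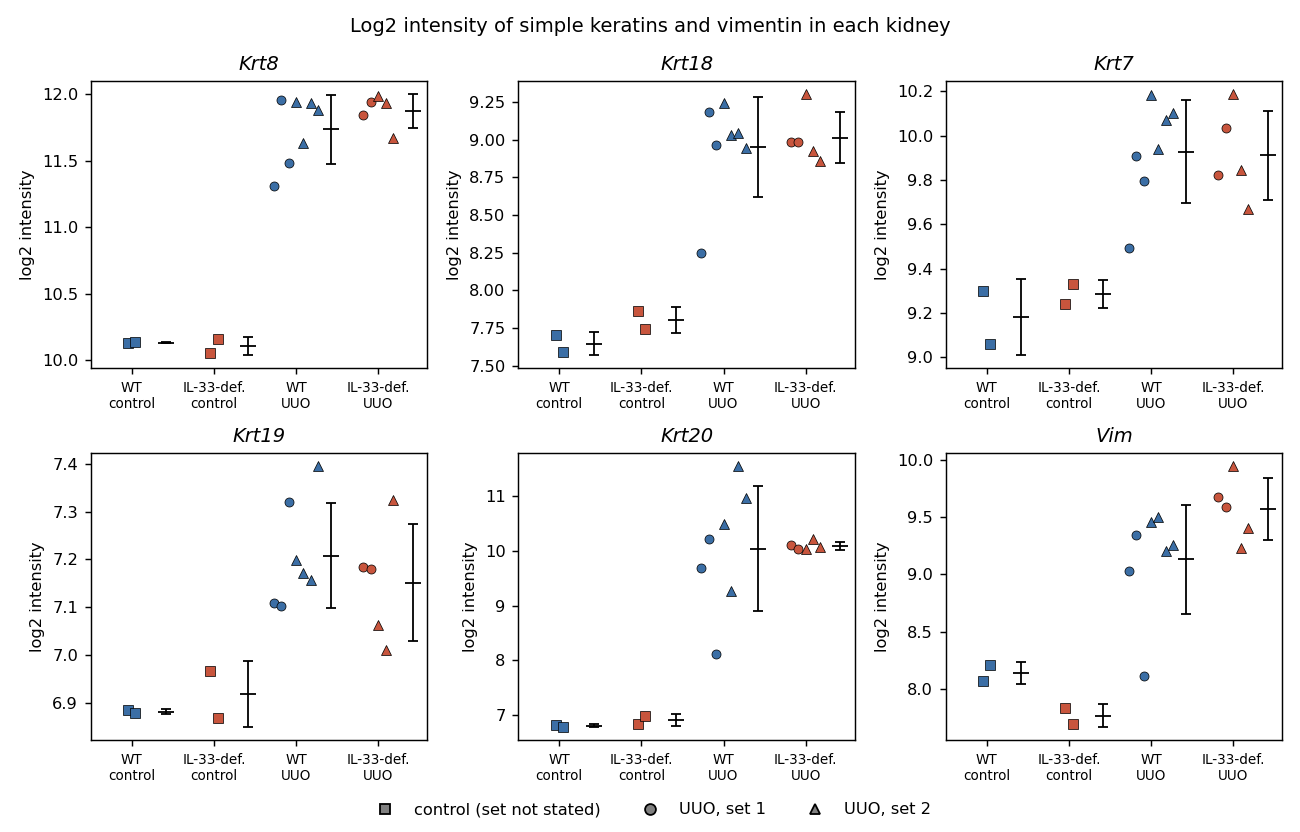
Log2 intensity (vertical axis, a scale of its own in each panel that does not start at 0) of the 6 genes in the 16 kidneys by genotype and treatment. Squares are controls, circles are obstructed kidneys of set 1 and triangles those of set 2, and bars give the mean ± SD. Krt20 spreads from 8.11 to 11.56 in obstructed WT kidneys and from 10.03 to 10.23 in IL-33-deficient ones, and 1 obstructed WT kidney (3820) lies among the controls for Vim.

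The same question was asked of IL-33-deficient kidneys. Of the 6 genes, 5 rose at an adjusted p of 0.05 in limma, where 21.8% of all genes passed, 10.6% as higher and 11.2% as lower, and Krt19 did not pass. The median log2 fold change of the 6 genes was 1.49, beside -0.00057 over all genes. All 6 genes were higher in every obstructed kidney than in both controls, as were 17.5% of all genes. Krt20 again had the largest rise, followed here by Vim and Krt8.

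Krt8 was 10.06 and 10.16 on the log2 scale in the IL-33-deficient controls, and 11.84, 11.94, 11.98, 11.94 and 11.67 in kidneys 3821, 3822, 3897, 3898 and 3899 after UUO. The 5 obstructed kidneys lay close together and far above the controls. Krt8 rose by a log2 fold change of 1.77 (SE 0.15), or 3.41-fold, with an adjusted p of 5.9e-06 in limma.

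Krt18 was 7.86 and 7.74 in the controls and 8.99, 8.98, 9.30, 8.93 and 8.86 in the same 5 kidneys, again on the log2 scale. There was no overlap, and kidney 3897 was the highest. The log2 fold change of Krt18 was 1.21 (SE 0.19), with an adjusted p of 0.000417 in limma.

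Krt7 lay at 9.24 and 9.33 in the controls and between 9.67 and 10.19 after UUO. It rose by a log2 fold change of 0.63 (SE 0.16), with an adjusted p of 0.00999 in limma, and this call was lost without control 3813 (adjusted p = 0.102) or control 3814 (adjusted p = 0.0541). Krt19 lay at 6.97 and 6.87 in the controls and between 7.01 and 7.32 after UUO. Its groups did not overlap either, but the log2 fold change of 0.23 (SE 0.08) had an adjusted p of 0.0644 in limma. Krt19 passed at an adjusted p of 0.0265 with the lowest intensity so subtracted, of 0.0342 without kidney 3898, of 0.0467 among the brighter genes alone and of 0.0486 with a variance trend.

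Krt20 was 6.84 and 6.98 on the log2 scale in the IL-33-deficient controls and 10.11, 10.04, 10.03, 10.23 and 10.07 in the 5 obstructed kidneys. The 5 values were nearly equal: the highest intensity was 1.14 times the lowest, against 10.9 times in the 7 WT kidneys. The SD on the log2 scale was 0.08 (n = 5) in IL-33-deficient and 1.14 (n = 7) in WT kidneys after UUO, and the difference between these spreads was not tested. The log2 fold change of Krt20 was 3.19 (SE 0.61), or 9.10-fold, with an adjusted p of 0.00154 in limma. Its SE and p rest on a spread shared by the 4 groups, which for Krt20 came mostly from the WT kidneys after UUO. They do not measure the narrow spread of the 5 IL-33-deficient kidneys. Krt20 was 13th of all genes in the order from the largest rise down. Its controls lay at 114 and 127 intensity units, near background, and with the lowest intensity subtracted as above its log2 fold change was 4.68.

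Vim was 7.83 and 7.69 on the log2 scale in the IL-33-deficient controls, and 9.68, 9.59, 9.95, 9.24 and 9.40 in the 5 obstructed kidneys. Every obstructed kidney was above both controls by more than the spread within either group. The log2 fold change of 1.81 (SE 0.28), or 3.50-fold, had an adjusted p of 0.000349 in limma. In the same order of genes Vim was 74th, against 191st in WT kidneys. The exact two-sided permutation test gave p = 0.0476, the smallest that 2 against 5 kidneys allow, for each gene but Krt19, where it gave 0.0952.

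**Figure D2:**
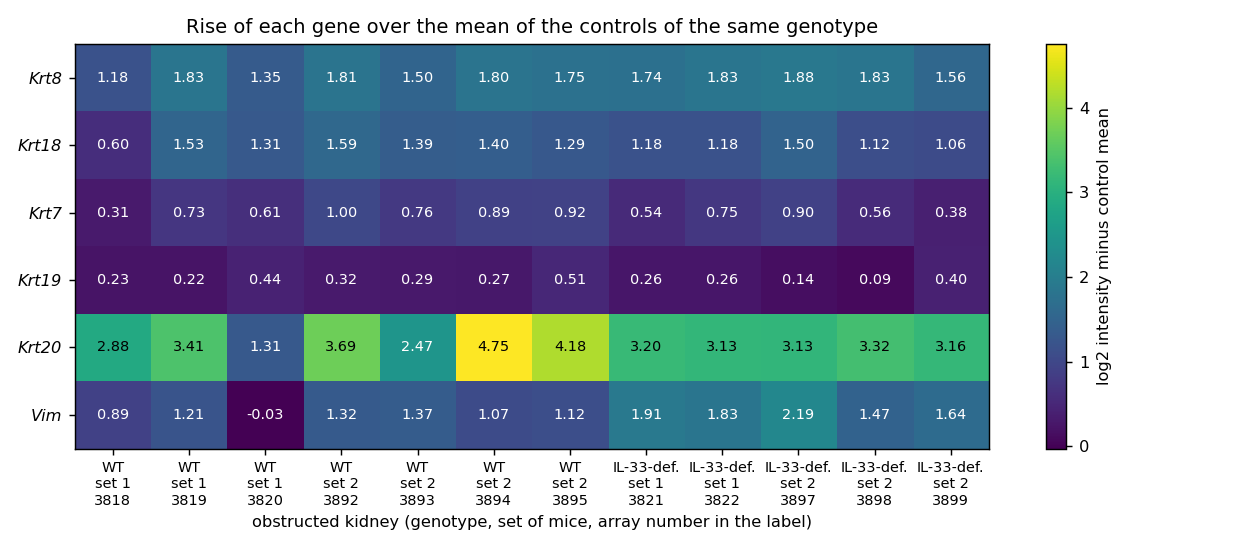
Rise of each gene (rows) in each of the 12 obstructed kidneys (columns, by genotype, set and label number) as log2 intensity minus the mean of the 2 controls of the same genotype, given in the cells and by the colour scale. The WT kidney 3818 is low for Krt18, with 0.60, and 3820 for Krt20, with 1.31, and for Vim, with -0.03. Neither is low in every gene, with 2.88 for Krt20 in 3818 and 0.44 for Krt19 in 3820.

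The genotypes were then compared after UUO, the comparison the study made, though with fewer WT arrays than the 7 used here. After UUO none of the 6 genes differed between IL-33-deficient and WT kidneys at an adjusted p of 0.05 in limma over the 12 obstructed kidneys. None had an unadjusted p under 0.05, where 10.3% of all genes did, and 1 gene of 18132 (0.00552%), Il33 itself, passed the adjusted p. By the threshold of the study, applied here to these 12 kidneys and not to the arrays the study chose, 0.0110% of the genes passed, and none of the 6 was among them.

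For Krt8 the IL-33-deficient minus WT difference after UUO was 0.14 on the log2 scale, with a 95% confidence interval from -0.11 to 0.39. The interval ran from -0.26 to 0.38 for Krt18, from -0.27 to 0.24 for Krt7 and from -0.19 to 0.08 for Krt19. A p that missed the threshold does not show that the genotypes were alike, and these intervals give the sizes of difference that remain possible for each gene. Within set 1 the difference was 0.31 for Krt8, 0.19 for Krt18, 0.20 for Krt7 and 0.00418 for Krt19. Within set 2 it was 0.02 for Krt8, -0.04 for Krt18, -0.17 for Krt7 and -0.10 for Krt19. Without kidneys 3818 and 3820 the difference of Krt8 was 0.00433 and that of Krt18 -0.08. These were the lowest obstructed WT kidneys in Krt8, so that leaving them out could only lower its difference.

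The interval of Krt20 was far wider, from -0.96 to 1.06 around a difference of 0.05. It uses a spread shared by both genotypes, and for Krt20 that spread came mostly from the WT kidneys. Within set 1 Krt20 was higher by 0.74 in IL-33-deficient kidneys and within set 2 lower, with a difference of -0.46, and the genotypes overlapped in both sets. Without kidneys 3818 and 3820 the difference of Krt20 was -0.41.

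Over all 12 obstructed kidneys Vim had the largest genotype difference of the 6 genes. Within set 2, and without kidneys 3818 and 3820, that of Krt20 was larger in size. Within set 2 that of Krt7 was also slightly larger in size, at -0.174 against 0.171 for Vim. The log2 intensity averaged 9.57 ± 0.27 (SD, n = 5) without IL-33 and 9.13 ± 0.48 (SD, n = 7) with it. The difference of 0.44 (SE 0.21), or 1.36-fold, had an adjusted p of 0.519 in limma, the exact two-sided permutation test gave p = 0.0682, and the groups overlapped. Without kidney 3820 the difference was 0.27, and without both 3818 and 3820 it was 0.22. These were the lowest obstructed WT kidneys in Vim, so that leaving them out could only lower the difference. Within set 1 the difference was 0.80, with no overlap between 2 and 3 kidneys (exact permutation p = 0.2, smallest possible 0.1), and within set 2 it was 0.17, with overlap (exact permutation p = 0.6, smallest possible 0.0286).

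In control kidneys no gene of the table differed between genotypes at an adjusted p of 0.05 in limma, and 3.66% had an unadjusted p under 0.05, with none of the 6 among them. Vim was lower in the IL-33-deficient controls by value, with a log2 difference of -0.38 (SE 0.34), and its controls did not overlap between genotypes, as for 16.9% of all genes. Krt18 and Krt20 did not overlap either and were higher by value, as were 17.1% of all genes. For the keratins this difference lay between -0.03 for Krt8 and 0.16 for Krt18. With 2 against 2 kidneys an exact permutation test cannot go below p = 0.333.

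The difference between the genotypes in the response to UUO was tested as an interaction. No gene of the table passed an adjusted p of 0.05 in limma, 4.74% had an unadjusted p under 0.05, and none of the 6 was among those. Over all kidneys Vim had the largest interaction of the 6, a log2 difference of 0.82 (SE 0.39, unadjusted p = 0.0564, adjusted p = 0.973 in limma), to which the lower controls and the higher obstructed kidneys of the IL-33-deficient mice both added. For the keratins the interaction lay between -0.12 for Krt7 and 0.17 for Krt8. With the obstructed kidneys of set 2 alone it was 0.55 for Vim and, in the other direction, -0.57 for Krt20. The rises of Vim in WT and in IL-33-deficient kidneys, 1.99-fold and 3.50-fold, were thus not shown to differ.

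**Figure D3:**
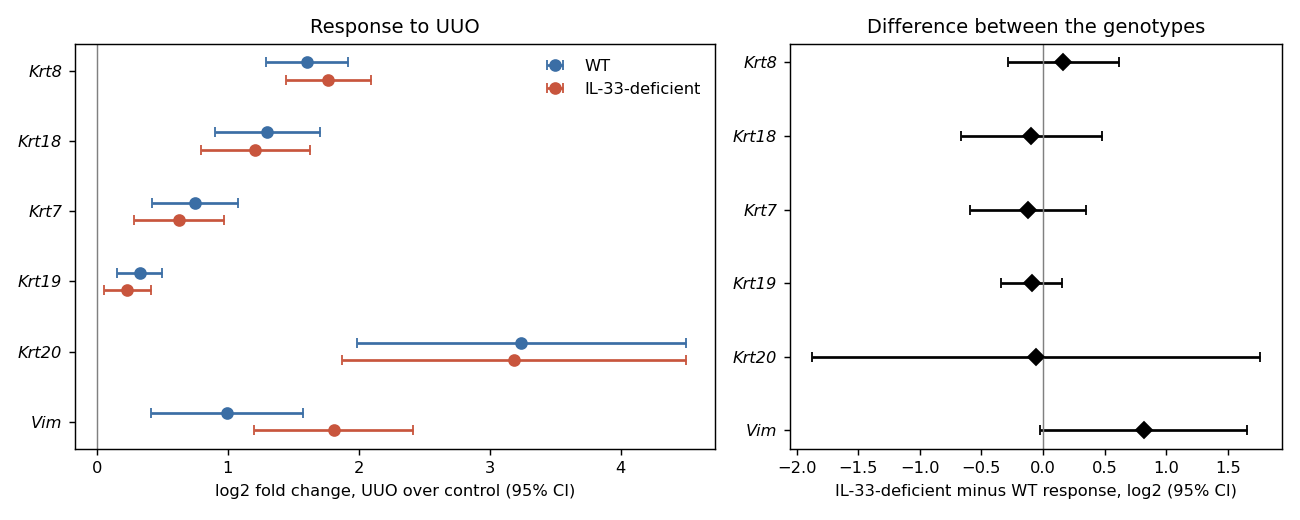
Left, log2 fold change of UUO over control (horizontal axis) with its 95% confidence interval for WT and IL-33-deficient kidneys. Right, the IL-33-deficient minus the WT response with its 95% confidence interval, which includes 0 for all 6 genes, is widest for Krt20 and lies mostly above 0 for Vim, at 0.82. All intervals use, for each gene, a spread shared by the 4 groups.

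The other members of the keratin family were looked at next. The table holds 41 further keratin genes, and 28 of them were below the array median on all 16 arrays, among them Krt5, the keratin of basal epithelial cells. In WT kidneys 2 of the 41 rose and 1 fell, and in IL-33-deficient kidneys 1 rose and 1 fell. Their median log2 fold change was 0.00218 in WT and 0.01 in IL-33-deficient kidneys. Of all genes, 6.97% rose and 8.22% fell in WT kidneys, and 10.6% rose and 11.2% fell in IL-33-deficient kidneys. The counts of the lists that follow are to be read beside the same shares. Krt14, which pairs with Krt5 in basal cells, rose in both genotypes, with log2 fold changes of 0.64 (adjusted p = 0.0283) and 0.63 (adjusted p = 0.0258) in limma. Krt17, a keratin of wounded epithelium, rose in WT kidneys by 0.31, and had a log2 fold change of 0.19 in IL-33-deficient kidneys that was not called. Krt10, a keratin of differentiating epidermis, fell in both, with log2 fold changes of -0.39 and -0.48.

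Among 12 other intermediate filament genes, 2 rose in WT and 3 in IL-33-deficient kidneys, and none fell. Lmna, which encodes the A-type lamins that line the nucleus, had log2 fold changes of 0.74 in WT and 0.95 in IL-33-deficient kidneys. Des, the desmin of muscle cells and pericytes, had 0.46 and 0.59. Nes, the nestin of progenitor cells and podocytes, rose in IL-33-deficient kidneys by 0.34 and had an uncalled 0.20 in WT kidneys.

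Keratin filaments are anchored at desmosomes and linked to the rest of the cytoskeleton by plakins. Of the 17 such genes listed, 11 were in the table, of which 2 rose and 1 fell in WT kidneys, while 4 rose and 1 fell in IL-33-deficient kidneys. Pkp2, a desmosomal plakophilin, had log2 fold changes of 0.62 in WT and 0.82 in IL-33-deficient kidneys. Plec1, the older symbol of the linker plectin, had 0.53 and 0.64. Dsp, the desmoplakin that binds keratins to the desmosome, rose in IL-33-deficient kidneys by 0.39 and had an uncalled 0.12 in WT kidneys. No gene of these 3 lists was called for genotype after UUO or for the interaction.

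Genes that mark injury and cell types were read beside the 6 genes. Of 11 injury genes of the tubule, 6 rose in WT and 8 in IL-33-deficient kidneys and none fell. Havcr1 (Kim-1), a membrane protein of injured proximal tubule, had log2 fold changes of 5.78 and 6.52, and Lcn2, a secreted siderophore-binding protein of injured distal tubule, had 5.61 and 5.91. Anxa2, a membrane-binding annexin, had 1.41 and 2.05.

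Krt7 and Krt19 are also made by urothelium and collecting duct, and Krt20 by urothelium. The markers of both tissues were therefore read in the same kidneys. Of all genes, 6.97% rose and 8.22% fell in WT kidneys, and 10.6% rose and 11.2% fell in IL-33-deficient kidneys. None of 8 urothelial genes rose in either genotype, and 5 fell in IL-33-deficient kidneys, among them Psca with a log2 fold change of -1.19 and the uroplakins Upk2 with -0.46 and Upk3b with -0.21. Their summed intensity was 1179 to 1381 in WT controls and 975 to 1127 in obstructed WT kidneys, and 1445 to 1637 in IL-33-deficient controls and 1008 to 1362 after UUO. Apart from Psca, the group means of these genes lay between 6.83 and 7.41 on the log2 scale, near background, where fold changes are compressed. Of 8 collecting duct genes none rose, and 6 were not called in either genotype. The water channels Aqp2 and Aqp3 fell in both genotypes, with log2 fold changes of -1.08 and -1.35 in WT and of -1.42 and -1.79 in IL-33-deficient kidneys. Of 6 proximal tubule genes 1 fell in WT and 4 in IL-33-deficient kidneys, and none rose.

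Vim is made by several cell types other than tubule, whose markers were read beside it. Of 8 fibroblast and pericyte genes, 4 rose in WT and 5 in IL-33-deficient kidneys. Col1a1, a chain of type I collagen, had log2 fold changes of 1.17 and 1.63, and Acta2, the smooth muscle actin of myofibroblasts and vessels, had 0.49 and 1.54. Pdgfra (-0.24 and -0.15), Dcn (-0.15 and -0.06) and Lum (0.01 and 0.00292) were called in neither genotype. In a sum of intensities the brightest gene weighs most, and after UUO that was Acta2. The summed intensity of the 8 genes was 3265 to 3684 in WT controls and 3324 to 3450 in IL-33-deficient controls. It was 3318 to 5119 in obstructed WT kidneys and 5394 to 6442 in obstructed IL-33-deficient kidneys. Kidney 3820, the lowest of all obstructed kidneys in Vim, was also the lowest in this sum and in that of the injury genes (24281). The other obstructed WT kidneys did not keep this order. Kidney 3818, the next lowest in Vim at 9.03, had a fibroblast and pericyte sum of 4808, and 3893, the highest of them in Vim at 9.51, had 4172.5.

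Of 10 leukocyte genes, 2 were higher, 1 was lower and 7 were not called in WT kidneys, and 5 were higher and 1 lower in IL-33-deficient kidneys. S100a8, a calcium-binding protein of neutrophils, had log2 fold changes of 1.54 and 2.58. The gene that fell was Csf1r, the receptor of macrophage growth factors, named after its values were seen, with log2 fold changes of -0.41 (adjusted p = 4.5e-05) and -0.36 (adjusted p = 7.0e-05) in limma, while Ptprc, the leukocyte antigen CD45, was below the array median on all arrays. Their summed intensity was 1656 to 2238 in the controls, 2179 to 4417 in obstructed WT and 2999 to 5080 in obstructed IL-33-deficient kidneys. The 8 endothelial genes had no rise, with 3 lower in IL-33-deficient kidneys, and of 3 podocyte genes 1 fell in each genotype. The part of any of these cell types in the values of the 6 genes was not tested.

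**Figure D4:**
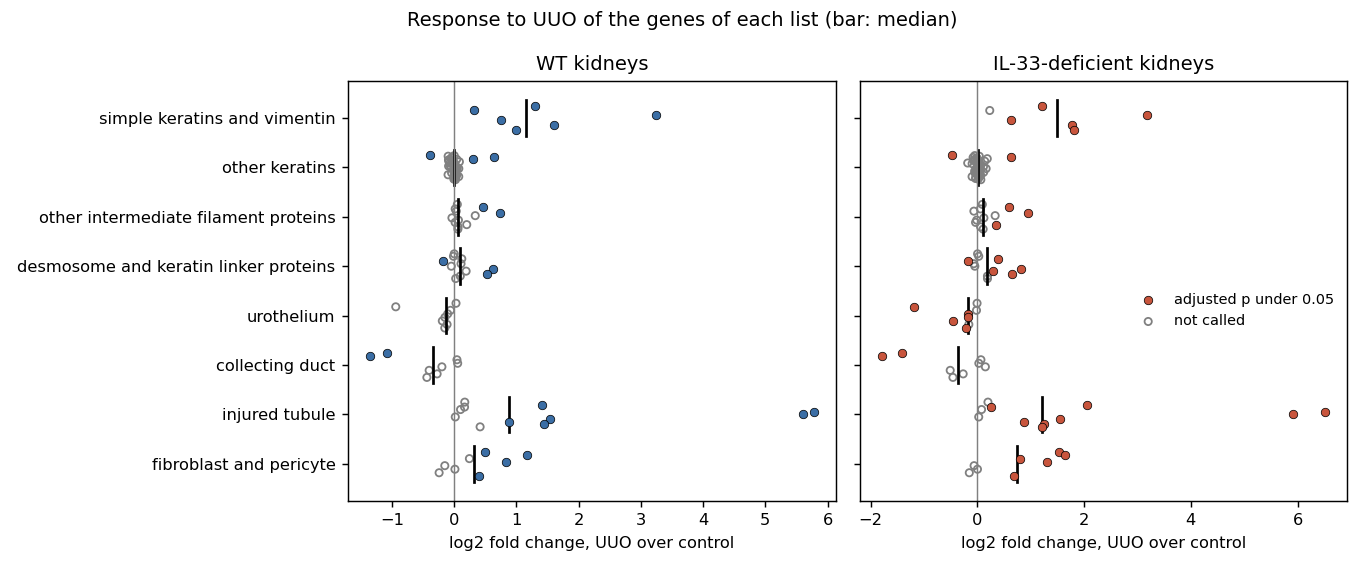
Log2 fold change of UUO over control (horizontal axis, a scale of its own in each panel) of every gene of 8 lists in WT kidneys (left, called genes filled blue) and IL-33-deficient kidneys (right, called genes filled red). Open points were not called at an adjusted p of 0.05 and black bars are list medians, which lie at 1.15 and 1.49 for the simple keratins and vimentin and at 0.00218 and 0.01 for the 41 other keratins.

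How the 6 genes varied among obstructed kidneys was described over the 12 arrays. Krt8, Krt18 and Krt7 varied together: Pearson's r was 0.78 for Krt8 with Krt18 (adjusted permutation p = 0.0181), 0.79 for Krt8 with Krt7 (0.0181) and 0.82 for Krt18 with Krt7 (0.0130), adjusted over 15 pairs. Spearman's rho of these pairs was 0.71, 0.73 and 0.74, with an adjusted permutation p of 0.0608 for each. Without the 2 kidneys farthest from the median of the first gene named, 3818 with 3820 or with 3897, r was 0.52, 0.59 and 0.60. Leaving out kidneys by their distance in that gene narrows its range, which by itself tends to lower r. Within the 7 kidneys of set 2 r was 0.53, 0.67 and 0.81. The 5 kidneys of set 1 are too few for a correlation.

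The pairs with Krt20, Vim or Krt19 were less clear, and no difference between correlations was tested. Krt20 had r = 0.64 with Krt8 (adjusted permutation p = 0.0980) and 0.19 with Krt18 over the 12 kidneys. Vim with Krt8 had r = 0.60, which was 0.06 without kidneys 3818 and 3820 and 0.09 within set 2, whereas Vim with Krt18 had r = 0.37 over the 12 kidneys and 0.73 within set 2. Krt19 had an r between -0.37 and -0.00310 with each of the other 5. None of the 12 pairs outside the Krt7, Krt8 and Krt18 group passed an adjusted p of 0.05.

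The genes whose pattern over all 16 arrays was most like each of the 6 were found by Pearson's r, which here carries mainly the difference between control and obstructed kidneys and is given as a description. For Krt8 they were Stat3, a transcription factor of cytokine signalling, with r = 0.990, Lcn2 with 0.988 and Tsc22d1 with 0.987. Krt18 was most like Gadd45a (0.977), a gene of the growth arrest response, Ctps (0.977), which makes CTP, and Nfkbiz (0.969). Krt7 was most like Tgif1 (0.958), Sprr2f (0.954) and Tmpo (0.95).

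Krt20 was most like Acat3 (r = 0.988), Lrg1 (0.979), a secreted glycoprotein, and Fkbp11 (0.975), a protein-folding enzyme of the endoplasmic reticulum. Vim was most like the translation factor gene Eif3d (0.975), Ifitm3 (0.975), an interferon-induced membrane protein, and Scye1, the older symbol of Aimp1 (0.974). For the dim Krt19 the highest r were lower, 0.885 for Pik3c2a, 0.873 for Ctdspl2 and 0.859 for Apoc2. No gene was among the 3 most alike of more than 1 of the 6.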

How the data were processed

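RNA of 16 mouse kidneys was hybridized to Illumina BeadChips (7 WT and 5 IL-33-deficient after UUO, 2 controls of each genotype). The authors deposited linear intensity values, 1 per gene, for 18132 genes with no missing value, and the labels name BeadStudio 2. How probes of a gene were joined, background correction and normalization are not given in the sources used here. Across the arrays, deposited intensity values at a given rank varied by 0.708% (median) and no more than 9.83%, and had thus been normalized before. The lowest intensity, 95.5, is background, and fold changes of dim genes are compressed by it. No detection p-values were used.

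Intensities were quantile-normalized, taken to log2 and fitted in R 4.3.3 using limma 3.58.1 (lmFit, eBayes): 1 model of 4 groups over 16 arrays for the responses to UUO, the control kidneys and the interaction, and the 12 obstructed kidneys alone for the genotypes after UUO. P-values were adjusted by Benjamini-Hochberg over 18132 genes and called at 0.05. The threshold of the study (p under 0.05, adjusted p under 0.25, fold above 1.3) was also applied after UUO. Exact two-sided permutation tests compared means of single genes, and correlations used 100000 permutations (Python 3.11.15, pandas 2.3.3, scipy 1.17.1, numpy 2.4.6). Plots used matplotlib 3.10.9. The labels list the kidneys as separate samples. The limma p-values use a spread between kidneys that is pooled over all groups of the model and moderated across genes. That spread is not the one of each group by itself. Precision is limited by how few arrays there are. The script was tested on simulated arrays.

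The 6 genes and all gene lists were chosen with earlier results of these data known. The rule for naming was the 6 genes, Il33, at most 3 genes of a list with the largest log2 fold change among those called, and the 3 genes most alike to each of the 6. Ptprc and Krt5 are named as defining markers, and Pdgfra, Dcn and Lum as the fibroblast and pericyte genes called in neither genotype. Leaving out WT kidneys 3818 and 3820 together was chosen after seeing the data. The other alternatives were the lowest intensity of each array subtracted and 16 added, no second normalization, median centring, a robust variance trend, all 16 arrays in 1 model after UUO, array weights, brighter genes alone, each set alone or as a block, and each kidney left out in turn.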

Additional observations from a re-analysis of the deposited data

Results flagged for a closer look

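The search covered 21 groups of 4 to 10 kidneys. They were the 6 genes and Il33, in all obstructed kidneys of a genotype and in the 4 WT kidneys of set 2. In 5 groups 1 kidney lay far from the others by Dixon's criterion at 95%. Chance alone meets this criterion in about 1 of 20 groups. The 21 groups share kidneys and are not independent, so that 5 of 21 cannot be read against that rate. Krt18 was 8.25 on the log2 scale in the obstructed WT kidney 3818, where the other 6 lay between 8.94 and 9.24. Krt18 was 9.30 in the obstructed IL-33-deficient kidney 3897, where the other 4 lay between 8.86 and 8.99. Vim was 8.11 in the obstructed WT kidney 3820, where the other 6 lay between 9.03 and 9.51. Il33 was 8.39 in kidney 3818, where the other 6 lay between 9.10 and 9.57, and 9.33 in kidney 3893 of set 2, where the other 3 lay between 9.44 and 9.46.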

How the results depend on the processing

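No paired analysis was possible because the labels name no pairs of mice, and each array has a number of its own. The counts of the 6 genes called in the 2 responses to UUO were recomputed 33 times, and 31 stayed within 1.5 times, while the counts of 0 for genotype and interaction stayed at 0 in 58 of 58. The count in WT kidneys was 1 with the obstructed kidneys of set 1 alone, and between 3 and 6 with single kidneys left out. Of 183 values of called genes, 171 stayed called, 12 lost the call and none changed direction. Directions changed only among differences that were not called. With set 1 alone the Il33 response in IL-33-deficient kidneys was -0.0247, the interaction was 0.0332 for Krt18, 0.0911 for Krt7 and 0.63 for Krt20, and the genotype difference after UUO was 0.20 for Krt7 and 0.00418 for Krt19. With set 2 alone that difference was -0.0362 for Krt18 and -0.46 for Krt20, without kidneys 3818 and 3820 it was -0.0772 for Krt18 and -0.41 for Krt20, and with array weights it was -0.15 for Krt20. With single kidneys left out, the genotype difference after UUO ranged from -0.0560 to 0.11 for Krt18, from -0.0879 to 0.0449 for Krt7 and from -0.27 to 0.30 for Krt20, and the interaction of Krt20 from -0.38 to 0.20. In the controls it ranged from -0.0751 to 0.0236 for Krt8, from -0.0149 to 0.23 for Krt7 and from -0.0123 to 0.0857 for Krt19, and the Il33 response in IL-33-deficient kidneys from -0.00589 to 0.0476. The causes were not tested. Krt19 and the control values of Krt20 lie near background, where fold changes are compressed.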
